A study of Mus musculus with 117 samples.

Results

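The 46 genes described here are a fixed list of type I interferon response genes, which were looked up by symbol and gene identifier in the table of RNA counts. All 46 were found among the 26301 genes of that table. The list was not chosen by a threshold on these libraries, but earlier results of these data were known when it was chosen. It holds 5 genes of signalling and transcription (Stat2, Irf1, Irf7, Irf9 and Usp18) and 4 sensors of foreign nucleic acid (Ifih1, Dhx58, Zbp1 and Eif2ak2). A further 8 are antiviral effectors (Ifit1, Ifit2, Ifit3, Mx1, Mx2, Rsad2, Cmpk2 and Bst2), and 5 belong to the oligoadenylate synthetase family (Oas1a, Oas2, Oas3, Oasl1 and Oasl2). Another 8 act through ubiquitin, ISG15 or ADP-ribose (Isg15, Herc6, Trim25, Trim12a, Trim30a, Parp9, Parp14 and Dtx3l), 3 serve antigen processing (Psmb8, Psmb9 and Tap1) and 3 are of the PYHIN family (Ifi203, Ifi204 and Mndal). The other 10 are Cxcl10, Xaf1, Rtp4, Samd9l, Ifi27, Ifi35, Ifi44, Lgals3bp, Gbp2 and Gbp3.

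Type I interferons bind a receptor made of IFNAR1 and IFNAR2, whose kinases JAK1 and TYK2 phosphorylate STAT proteins. STAT2 and IRF9 are parts of the complex ISGF3, which enters the nucleus and binds the interferon-stimulated response element (ISRE) in the promoters of genes that act against viruses. IRF7 extends the response and IRF1 drives an overlapping set of genes, while USP18 damps the receptor. Fibroblasts can make and answer type I interferon, whereas pluripotent cells are known for a weak response to it.

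The study asked how SUMO, a small protein attached to other proteins, holds cells in their state. Its only conjugating enzyme, Ubc9, was depleted here in mouse cells before total RNA was sequenced from ribosomal-depleted, stranded libraries. The 28 RNA libraries form 10 groups. MEF are fibroblasts of E13.5 embryos at passage 1, with a control hairpin (shCtrl, n = 3) or a hairpin against Ubc9 (shUbc9, n = 2). D4 and D7 are such fibroblasts after 4 or 7 days of expressing OKSM (Oct4, Klf4, Sox2 and Myc), which drive reprogramming, with shCtrl (n = 3 each) or shUbc9 (n = 3 each). iPS cells were derived from MEF and carried shCtrl (n = 2) or shUbc9 (n = 3). ES cells, at passages 15 to 20, received small interfering RNA, siCtrl (n = 3) or siUbc9 (n = 3), and no factors. The labels used here do not give how hairpins and factors were delivered, how long depletion lasted or whether the iPS libraries are separate clones. They also leave unsaid whether replicates were separate cultures, and each p-value therefore reflects only the scatter among the libraries compared, which may be technical.

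Counts in genes ranged from 11365908 to 58779915 per library. The 10 pluripotency markers examined summed to 1.32 to 5.37 CPM (counts per 1e6 counts in genes) in MEF and to 2546 to 5276 CPM in the ES and iPS libraries, and the 10 fibroblast markers to 26517 to 32635 CPM in MEF and 444 to 839.9 CPM in ES cells. A gene was called where its p from edgeR's quasi-likelihood test, adjusted by the Benjamini-Hochberg method over all genes tested, was under 0.05. CPM are not divided by gene length, so levels are compared between groups and not between genes. The sources used here do not say how reads that map to several copies were counted, so the values of members with close copies (Ifit3 beside Ifit3b, the Oas, Gbp and Mx genes, Trim12a, Trim30a and the PYHIN genes) are uncertain to that extent.

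Promoter windows were held for 35 of the 46 genes in a RefSeq table of the build GRCm38.p6, from 250 bases before to 50 after each start. Letters of the ISRE core, GAAANNGAAA on either strand, stood in the window of 17 of the 35 genes, 48.6%, against 3.99% of all 27025 genes with a window. The letters of the GAS, TTCNNNGAA, stood in 7 of 35 (20.0%), against 9.55% of all genes. The 4 stretches shown here come from genes that were lower with Ubc9 depletion at both D4 and D7, and each holds at least 1 ISRE core, in capitals; Trim12a, whose match lies at or after its start, is not shown. The sequences are from RefSeq, 5′ to 3′ along the strand of the gene, at chr5:92349003-92349122 (minus strand) for Cxcl10, chr19:34583353-34583472 (plus) for Ifit3, chr10:128270256-128270375 (plus) for Stat2 and chr1:173942493-173942612 (minus) for Ifi203.
Cxcl10: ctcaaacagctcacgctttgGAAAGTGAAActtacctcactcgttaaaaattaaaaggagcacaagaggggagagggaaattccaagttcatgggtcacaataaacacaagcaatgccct
Ifit3: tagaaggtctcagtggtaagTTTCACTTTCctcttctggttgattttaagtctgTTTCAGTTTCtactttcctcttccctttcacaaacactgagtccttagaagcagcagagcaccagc
Stat2: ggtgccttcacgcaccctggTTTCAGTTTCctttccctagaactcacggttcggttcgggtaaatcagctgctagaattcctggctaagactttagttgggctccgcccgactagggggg
Ifi203: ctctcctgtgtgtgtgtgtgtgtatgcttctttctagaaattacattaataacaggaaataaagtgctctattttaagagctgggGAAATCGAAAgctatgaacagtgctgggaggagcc
In Cxcl10 the match covers bases 213 to 204 before the start and reads along the gene. The Ifit3 stretch holds a pair of matches, both on the reverse strand, at bases 156 to 147 and 122 to 113 before the start. The Stat2 match, also on the reverse strand, lies at bases 222 to 213, and that of Ifi203 at bases 35 to 26. A match of letters is not evidence of a bound site in these cells.

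Across the control groups the interferon genes stood highest in MEF and lowest in ES cells. Summed over the 46 genes, the level was 10604 to 12903 CPM in MEF, 6977 to 8304 at D4, 4040 to 6584 at D7, 1039 and 1707 in iPS cells and 549 to 578 in ES cells. Mean levels were highest in MEF for 38 genes and lowest in ES cells for 43, and they fell from MEF to D4, D7, iPS and ES in that order for 37. How many of all genes do the same was not counted. The libraries of MEF, D4 and D7 controls stood in falling order without overlap for 22 of the 46 genes, against 4.67% of all genes tested. For bulk RNA, fewer cells of a type and less RNA per cell cannot be told apart. The ES controls received small interfering RNA and no factors, whereas the other controls carried a hairpin. Cell state and the kind of control therefore cannot be told apart where ES cells are compared with another state.

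Stat2, which encodes a subunit of ISGF3, followed this order. Its level was 614, 541 and 589 CPM in MEF controls, 393, 365 and 388 at D4, 238, 318 and 208 at D7, 142 and 57.7 in iPS cells, and 13.49, 16.5 and 15.0 in ES cells. No library of any group reached into the next along MEF, D4 and D7, and the lowest iPS library still stood above every ES library. Ifit3, one of the antiviral effectors, had 998, 733 and 904 CPM in MEF controls, 373, 324 and 248 at D4, and 113, 223 and 86.2 at D7. Its level was 31.2 and 14.1 CPM in iPS cells, and 0.0550, 0.0409 and 0.0595 CPM in ES cells. Irf1 stood apart from both, with 92.1, 89.3 and 95.2 CPM in MEF and 111, 112 and 112 in ES cells, and 42.9 and 49.6 in iPS cells.

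**Figure D1:**
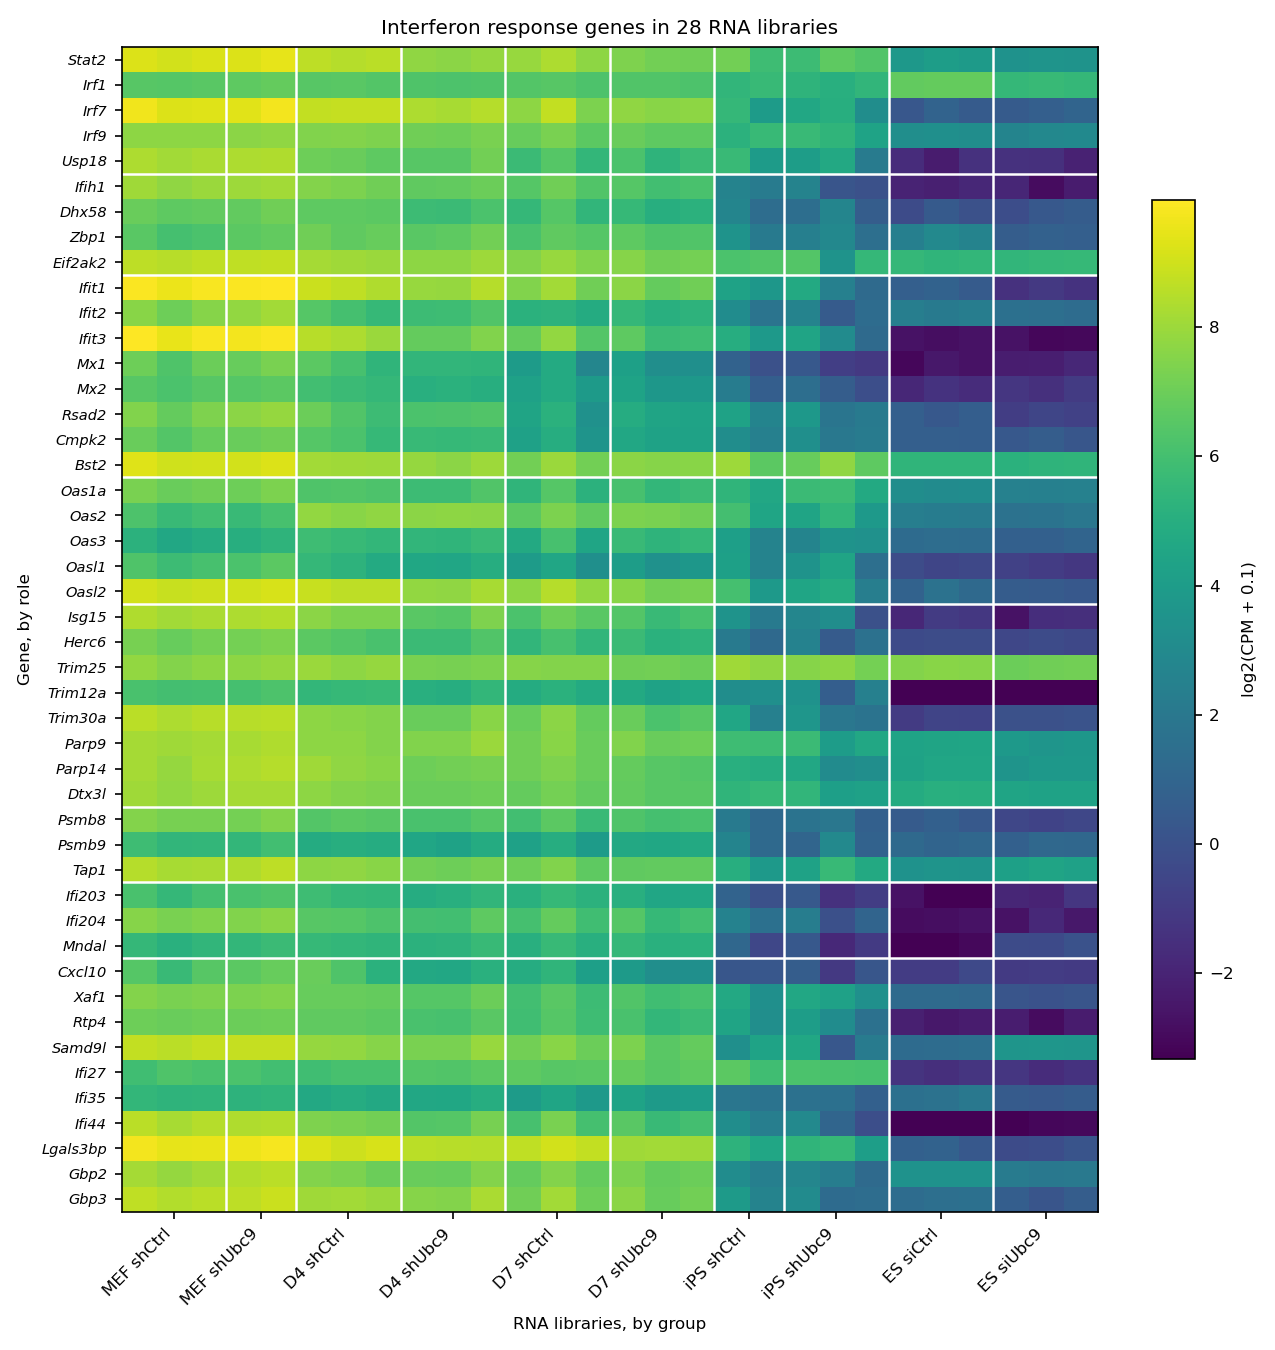
Level of each of the 46 interferon genes (rows, grouped by role) in each of the 28 RNA libraries (columns, grouped), as log2 of CPM plus 0.1. Most rows run from high in MEF, on the left, to low in ES cells, on the right, and the rows of Irf1 and Trim25 do not.

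In the tests between controls, D4 against MEF gave 36 of 46 interferon genes lower and 3 higher (median log2 fold change -0.63), where 33.5% of all genes tested were lower and 33.3% higher. The 3 higher genes were Oas2, Oas3 and Zbp1. Of the 15 macrophage markers 10 were lower and 3 higher between the same controls, with sums of 164 to 232 CPM in MEF and 157 to 163 CPM at D4, and their part in the interferon genes was not tested. Oas2, which makes the signal that activates RNase L, rose from 77.5, 52.2 and 61.1 CPM in MEF to 225, 192 and 219 CPM at D4 (log2 fold change 1.73). D7 against D4 gave 23 lower and 1 higher (median -0.60), where 7.65% of all genes were lower and 10.6% higher. That count ran from 2 to 43 when single libraries were left out: it was 2 without D7 shCtrl replicate 1, 5 without D4 shCtrl replicate 1, 11 and 12 without D4 shCtrl replicates 3 and 2, 15 without D7 shCtrl replicate 3 and 43 without D7 shCtrl replicate 2. Only Mx2 and Trim12a were lower in every one of these fits. Ifi27, which encodes a small interferon-inducible membrane protein and was the single rise, went from 60.1, 69.2 and 69.6 to 101, 91.1 and 93.3 CPM (log2 fold change 0.53, adjusted p = 0.00267).

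ES against MEF controls gave 44 genes lower and 1 higher, Irf1 (median -6.83 for the list and 0.13 for all genes), where 42.8% of all genes were lower and 47.7% higher. Trim25, a ubiquitin ligase that activates the RNA sensor RIG-I, was the gene not called, with 222, 182 and 206 CPM in MEF and 181, 198 and 190.5 CPM in ES cells. Ifi44 and Trim12a had no count in any ES control library, so a floor of 3 counts over the group was used, which puts Ifi44 at least 17899-fold and Trim12a at least 3477-fold lower than in MEF. Setting these genes at their bound left the median of the list where it was. iPS against ES controls gave 39 genes higher and 2 lower (Irf1 and Gbp2), with a median of 2.60, where 27.3% of all genes were higher and 26% lower. The higher genes ranged up to Ifi44 and Trim12a, at least 358-fold and 489-fold higher. Ifi27 had 98.3 and 60.2 CPM in iPS cells and 0.293, 0.246 and 0.318 CPM in ES cells. Markers of other cells also differed between these controls: the 15 macrophage markers summed to 115 and 210.5 CPM in iPS and 87.6 to 89.3 CPM in ES cells, and the fibroblast markers to 1232 and 2042 CPM in iPS and 566 to 839.9 CPM in ES cells. The part of such cells in the iPS levels was not tested. Both ES against MEF and iPS against ES set siCtrl beside shCtrl, so cell state and the kind of control cannot be told apart in them.

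In some libraries nearly all interferon genes stood on the same side of their group mean, and in those groups they spread more than genes at large. In MEF, shCtrl replicate 1 stood above its group mean for 43 genes and replicate 2 for 1, and shUbc9 replicate 3 for 45 and replicate 1 for 1. The median coefficients of variation there were 10.6% and 8.31% for the interferon genes and 5.34% and 3.61% for all genes of at least 1 CPM. D7 shCtrl replicate 2 stood above the mean of its group for 44 of the 46 genes, by a median of 0.45 on the log2 scale, and their sum was 6584 CPM there against 4356 and 4040 CPM in the other D7 controls. The median coefficient of variation in that group was 29.4% for the interferon genes and 7.85% for all genes. Macrophage markers summed to 174 CPM in that library, the lowest of its group, in which the others had 189.8 and 293 CPM. D4 shUbc9 replicate 3 stood above its group mean for 42 genes (median 0.26), and D7 shUbc9 replicate 1 for 43 (median 0.28). Among the iPS libraries, shCtrl replicate 1 was above for 39 (median 0.51), shUbc9 replicate 1 for 39 (median 0.76) and shUbc9 replicate 3 for 7 (median -0.61). The iPS shUbc9 group had a median coefficient of variation of 63.2% for the interferon genes and 35.4% for all genes. In ES siCtrl the corresponding values were 6.40% and 7.04%, so the genes above 1 CPM there varied no more than others. The iPS shUbc9 replicate 2 library also had the lowest depth and the highest sum of macrophage markers, 317 CPM, of all iPS libraries. The depletion results are given with and without these libraries.

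**Figure D2:**
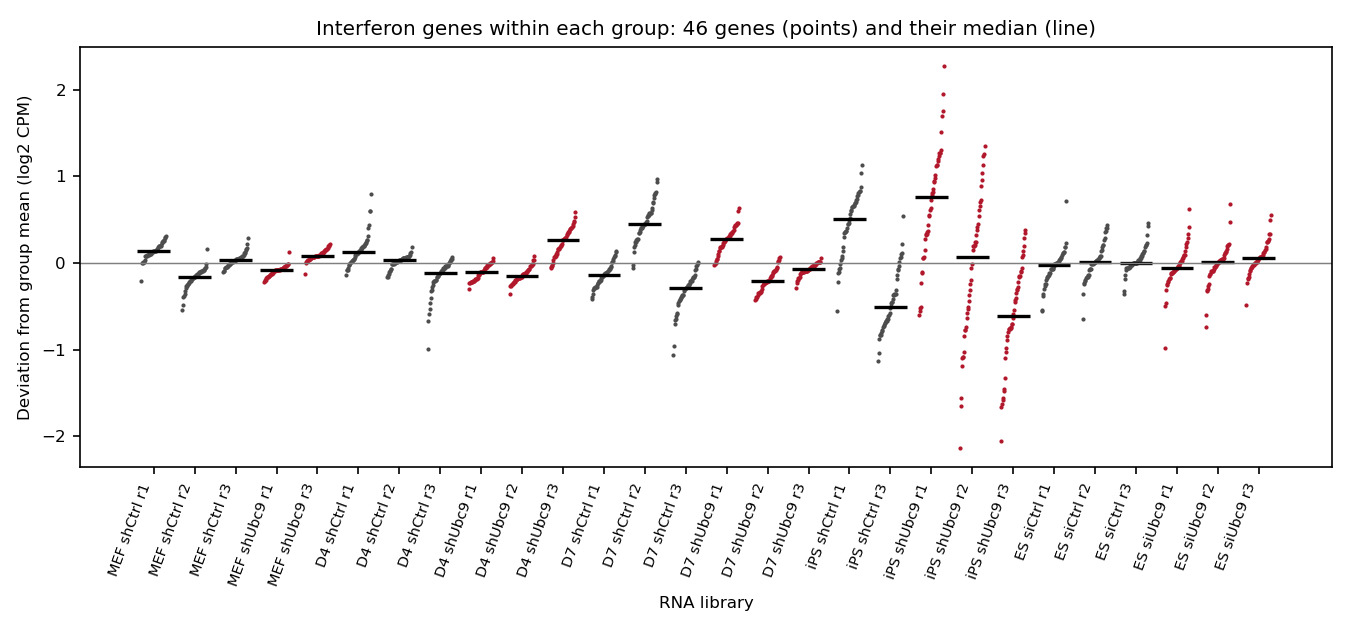
Deviation of each interferon gene (points, 46 per library) from its mean over the libraries of its group, in log2 CPM, with the median as a line. D7 shCtrl replicate 2, D7 shUbc9 replicate 1 and D4 shUbc9 replicate 3 have 42 to 44 of 46 points above 0.

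In MEF, Ubc9 depletion raised Irf1 and Gbp2 and lowered none of the 46 interferon genes. Of all genes 3.83% were higher, a share near the 4.35% of the list, and 2.21% were lower. Irf1, a transcription factor that acts on interferon genes without ISGF3, went from 92.1, 89.3 and 95.2 to 103 and 113 CPM (log2 fold change 0.22 ± 0.05 SE, adjusted p = 0.0428, with the standard error after each ± here and in what follows). Gbp2, a guanylate-binding protein that attacks the vacuoles of intracellular pathogens, went from 295, 232 and 274 to 349 and 391 CPM (0.46 ± 0.09, adjusted p = 0.022). The groups did not overlap for either gene, and all depleted libraries lay above all controls for 12 genes and below them for none, against 20.9% and 15.9% of all genes. Of the 46 genes 11 had an unadjusted p under 0.05 (edgeR quasi-likelihood test), all of them higher. Over all genes it was 3361 of the 16287 tested, in both directions together. The fitted change was above 0 for 41 of the 46 genes, with a median of 0.12. That median was 0.05, with 34 values above 0, without shCtrl replicate 2, and 0.06, with 32 above 0, without shUbc9 replicate 3. It was 0.19 without shCtrl replicate 1 and 0.20 without shUbc9 replicate 1. Stat2, at 614, 541 and 589 CPM with shCtrl and 609.6 and 717 CPM with shUbc9, was not called.

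Neither call in MEF held in every fit with a library left out. Irf1 was called only without shCtrl replicate 2, and without shCtrl replicates 1 and 3 and shUbc9 replicates 1 and 3 its adjusted p ran from 0.0789 to 0.394. Gbp2 was lost without shCtrl replicate 3 (adjusted p = 0.0867), shUbc9 replicate 1 (0.0535) or shUbc9 replicate 3 (0.181). Of 15 macrophage markers, 12 rose in the same comparison, and their sum went from between 164 and 232 to between 343 and 354 CPM; lymphocyte markers summed to 0.553 to 1.01 CPM and Cd3e and Ncr1 were at 0 in every MEF library. The part of macrophages in the Gbp2 and Irf1 levels was not tested.

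At D4, after 4 days of OKSM, depletion lowered 26 of the 46 interferon genes and raised 1, with a median log2 fold change of -0.40, where 26.1% of all genes were lower and 27.2% higher. The fitted change was below 0 for 45 genes. The groups stood apart without overlap for 20 lower genes and 1 higher gene, against 30.1% and 31.6% of all genes. The falls included Stat2, Irf1, Irf7 and Irf9 of the signalling genes, Ifih1 and Dhx58 of the sensors, all 3 antigen processing genes, Oasl1 and Oasl2 of the synthetase family, 5 of 8 antiviral effectors and 5 of 8 genes of the ubiquitin and ADP-ribose group. Fold changes of 2 or more were reached by 2 of the 26, Cxcl10 and Ifit3.

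Cxcl10, a chemokine that draws T cells, had 123, 80.1 and 35.3 CPM in D4 controls and 26.0, 25.4 and 35.0 CPM with shUbc9 (log2 fold change -1.46 ± 0.36, adjusted p = 0.00739). The lowest control lay just above the highest depleted library, and the controls spread more than the depleted libraries. Ifit3 fell from 373, 324 and 248 to 114, 116 and 178 CPM (-1.22 ± 0.19, adjusted p = 0.000626). Oasl2, a ubiquitin-like relative of the oligoadenylate synthetases, fell from 461, 395 and 404 to 229, 219 and 298 CPM (-0.76 ± 0.12, adjusted p = 0.000621). For both genes all depleted libraries lay below all controls, with shUbc9 replicate 3 the highest of them.

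Stat2 fell at D4 from 393, 365 and 388 to 218, 203 and 230.3 CPM (-0.82 ± 0.07, adjusted p = 2.2e-05), the smallest adjusted p of the list. Irf7, the factor that amplifies interferon production, fell from 431, 444 and 442 to 320.3, 295 and 353 CPM (-0.44 ± 0.07, adjusted p = 0.00104). Irf9, the DNA-binding part of ISGF3, fell from 173, 181 and 171 to 136, 129 and 159 CPM (-0.31 ± 0.08, adjusted p = 0.00921). Irf1 fell from 91.9, 93.1 and 84.5 to 78.5, 77.2 and 78.2 CPM (-0.20 ± 0.06, adjusted p = 0.017). None of these 4 regulators had overlapping groups. Usp18, the fifth gene of the signalling group, had 131, 124 and 102 CPM with shCtrl and 91.9, 91.3 and 142 CPM with shUbc9 and was not called. Ifi27 was the single rise, from 60.1, 69.2 and 69.6 to 84.6, 82.5 and 98.4 CPM (0.41 ± 0.09, adjusted p = 0.00331).

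Among the sensors of viral RNA, Dhx58, which tunes the other RIG-I-like receptors, fell at D4 from 100.4, 102 and 97.5 to 55.8, 53.3 and 73.1 CPM (log2 fold change -0.72), and Ifih1, which encodes MDA5, from 178, 162 and 137 to 105, 108 and 127 CPM (-0.49). Of the ubiquitin and ADP-ribose group, Trim25 fell from 249.6, 209 and 229.6 to 156, 153 and 161 CPM (-0.55), and Parp14, a mono-ADP-ribosyltransferase, from 274, 217 and 198 to 131, 139.9 and 151 CPM (-0.70). The groups of these 4 genes did not overlap. Isg15, the ubiquitin-like modifier itself, had 199, 162 and 165 CPM with shCtrl and 94.5, 87.0 and 167 CPM with shUbc9 (-0.60 ± 0.21, adjusted p = 0.0399). It was among the falls whose groups overlapped, because shUbc9 replicate 3 stood at the control level. Mx1, a GTPase against influenza virus, also overlapped, with 98.9, 68.0 and 41.0 CPM in controls and 42.9, 43.5 and 41.3 CPM with shUbc9, where control replicate 3 stood at the depleted level.

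**Figure D3:**
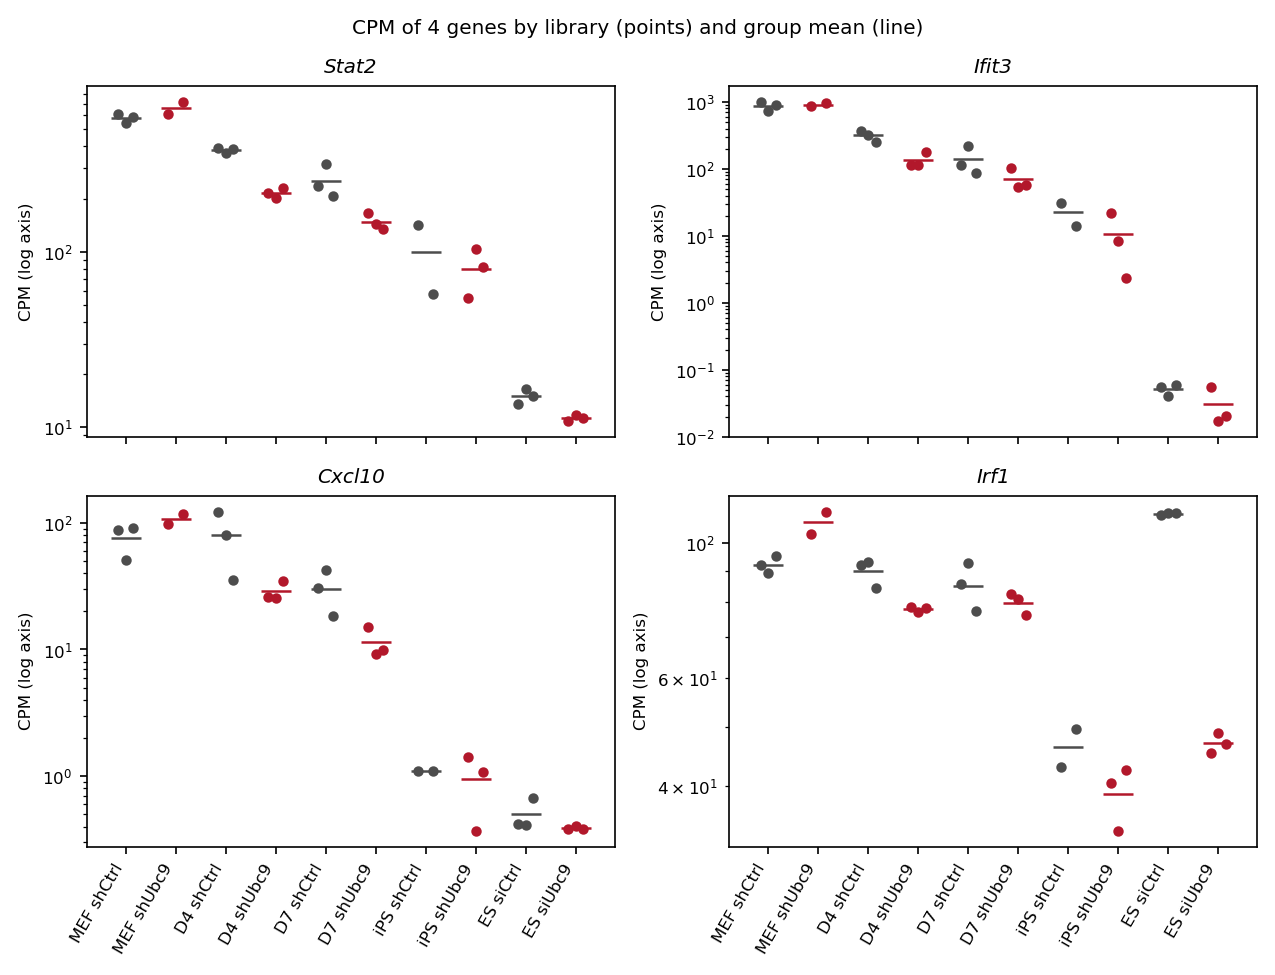
CPM of Stat2, Ifit3, Cxcl10 and Irf1 in each library (points, log axis) with the mean of each group as a line, controls in grey and Ubc9-depleted libraries in red. At D4 the depleted libraries lie below the controls in all 4 panels, and in ES cells Irf1 has the widest gap.

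The number of falls at D4 ran from 15 to 35 when a library was left out. It was 35, with a median of -0.51, without shUbc9 replicate 3, the library with the higher interferon genes, and 15, with a median of -0.31, without shUbc9 replicate 1. It was 17 without shCtrl replicate 2. In every such fit 14 genes were lower: Stat2, Irf7, Irf9, Ifih1, Dhx58, Ifit3, Mx2, Oasl2, Trim25, Parp14, Dtx3l, Tap1, Cxcl10 and Lgals3bp. In the same comparison 12 of 15 macrophage markers rose, from a sum between 157 and 163 to between 245 and 270.5 CPM, and all 10 fibroblast markers fell, from between 29873 and 43011 to between 20464 and 22778 CPM. The part of a change in cell makeup in the interferon genes was not tested.

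At D7 depletion lowered 10 of the 46 genes and raised none, with a median of -0.29, where 26.3% of all genes were lower and 27.3% higher; the members' share of 10 in 46 is under that background. For 9 genes all depleted libraries lay below all controls and for none above, against 29.9% and 30.8% of all genes. The 10 were Cxcl10, Ifit3, Stat2, Lgals3bp, Oasl2, Ifi203, Parp14, Trim25, Trim12a and Dtx3l, and all of them were also lower at D4. The other 16 genes lower at D4 were not called at D7. How many of all genes lower at D7 were also lower at D4 was not counted, so this overlap cannot be read as particular to the list.

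Cxcl10 fell at D7 from 30.3, 42.0 and 18.2 to 15.1, 9.22 and 9.90 CPM (log2 fold change -1.42 ± 0.29, adjusted p = 0.00333). Stat2 fell from 238, 318 and 208 to 167, 143 and 136 CPM (-0.77 ± 0.15, adjusted p = 0.00222). Lgals3bp, a secreted glycoprotein induced by interferon, fell from 417, 525 and 432 to 273, 282 and 268 CPM (-0.74 ± 0.09, adjusted p = 0.000248). All depleted libraries of these 3 genes lay below all controls. Ifit3 fell from 113, 223 and 86.2 to 103, 52.9 and 58.1 CPM (-0.98 ± 0.36, adjusted p = 0.0437), with overlap, since depleted replicate 1 stood above control replicate 3. Trim25, whose controls varied least of these, fell from 188, 181 and 184 to 134, 140.4 and 128 CPM (-0.46 ± 0.06, adjusted p = 0.000269), and Ifi203 from 34.3, 48.1 and 37.7 to 32.7, 23.1 and 25.0 CPM (-0.57 ± 0.16, adjusted p = 0.0159). Irf7 had 209.7, 428 and 165 CPM with shCtrl and 219, 195 and 210.2 CPM with shUbc9 and was not called (adjusted p = 0.328). Its depleted libraries lay inside the range of the controls, which control replicate 2 set.

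Without D7 shCtrl replicate 2 the picture of the list at D7 changed. The median turned from -0.29 to 0.03, with 24 fitted changes above 0 and 22 below, and 6 genes were then higher (Oas1a, Oas2, Oas3, Bst2, Psmb8 and Psmb9) and 7 lower (Stat2, Oasl2, Trim25, Cxcl10, Parp14, Lgals3bp and Ifi203). Oas2 had 99.1, 164 and 106 CPM in D7 controls and 164, 159 and 136 CPM with shUbc9, so the depleted libraries lay above 2 of the 3 controls. Its change was 0.31 with all libraries and 0.57 without that control (adjusted p = 0.000801). The median of the list stayed below 0 without any of the other libraries. It was -0.39 and -0.43 without shCtrl replicates 1 and 3, and -0.45, -0.14 and -0.26 without shUbc9 replicates 1, 2 and 3. The number of falls was 5 without shUbc9 replicate 3, 6 without shUbc9 replicate 2, and 15 without shCtrl replicate 3 or shUbc9 replicate 1. Stat2, Trim25, Cxcl10, Parp14 and Lgals3bp were lower in every fit with a library left out. With library sizes alone in place of TMM scaling, which moved the median of all genes by 0.21, 4 genes were lower and 2 higher at D7. Macrophage markers gave 2 rises and 1 fall of 15, from a sum between 174 and 293 to between 185 and 229 CPM, 9 of 10 fibroblast markers fell, from between 40332 and 56524 to between 18097 and 22491 CPM, and 9 of 10 pluripotency markers rose, from between 72.9 and 75.6 to between 172 and 252 CPM. The part of these shifts in the interferon genes was not tested.

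**Figure D4:**
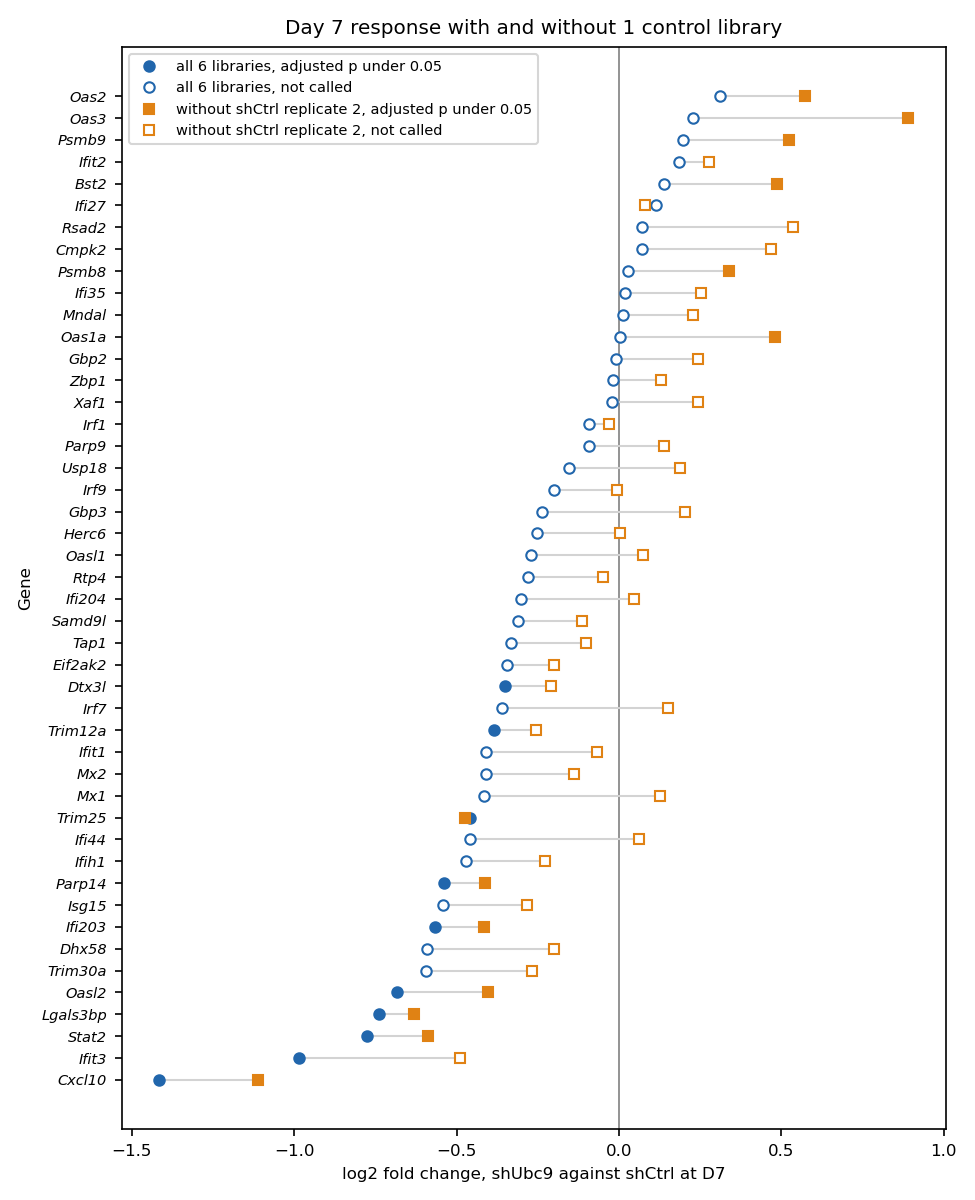
Log2 fold change of each interferon gene between shUbc9 and shCtrl at D7 with all 6 libraries (circles) and without shCtrl replicate 2 (squares), filled where the adjusted p is under 0.05. Nearly all squares lie to the right of their circles, and Stat2, Cxcl10, Lgals3bp, Oasl2, Ifi203, Parp14 and Trim25 stay filled on the left.

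In iPS cells none of the 46 genes was called in either direction, and 0% of all genes were called higher and 0% lower (edgeR quasi-likelihood test). None had an unadjusted p under 0.05, and DESeq2 called none of the 46. The median change was -0.62 with 42 of 46 values below 0, and it was 0.02, with 23 above and 23 below, without shCtrl replicate 1, and -0.94 without shCtrl replicate 3. Without shUbc9 replicate 1, 2 or 3 it was -0.92, -0.60 or -0.35, with no call in any of these fits. Stat2 had 142 and 57.7 CPM with shCtrl and 54.5, 104 and 82.4 CPM in the libraries labelled shUbc9, so that the groups overlapped. Groups stood apart for 5 genes (Irf1, Ifi35, Trim25, Parp9 and Parp14), all lower, against 5.83% of all genes lower and 6.67% higher. Fitted changes ran from -1.25 ± 0.71 for Gbp3, with 15.2 and 6.01 against 8.57, 2.40 and 2.56 CPM, to 0.42 ± 0.55 for Tap1, with 32.5 and 14.1 against 20.4, 49.3 and 27.0 CPM. For Tap1 the standard error was 0.07 at D4 and in ES cells. With all groups in 1 fit, 1 of the 46 genes was lower in iPS cells.

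In ES cells 38 of the 46 genes had enough counts to be tested, and siUbc9 lowered 22 and raised 4, with a median of -0.43, where 17.8% of all genes were lower and 21.3% higher. Ifi203, Ifi204, Ifi44, Ifih1, Ifit3, Mx1, Rtp4 and Trim12a were under the filter on low counts. The groups did not overlap for 24 lower and 4 higher genes, against 33.3% and 19.3% of all genes. With all libraries, all 5 oligoadenylate synthetase genes fell, as did Stat2, Irf1 and Irf9 of the signalling genes, Ifit1, Ifit2 and Rsad2 of the effectors, and Trim25, Parp9, Parp14 and Dtx3l of the ubiquitin and ADP-ribose group. Of the 22 genes that fell, 21 had a mean of at least 1 CPM in siCtrl, and 9 fell by 2-fold or more.

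Zbp1, a sensor of left-handed nucleic acid that starts cell death, fell from 5.26, 7.47 and 6.13 to 1.43, 1.64 and 1.55 CPM (log2 fold change -1.92 ± 0.16, adjusted p = 2.41e-05). Gbp2 fell from 10.9, 11.0 and 10.8 to 4.55, 3.88 and 3.98 CPM (-1.34 ± 0.09, adjusted p = 6.06e-06). Ifi35, a leucine zipper protein, fell from 2.90, 3.11 and 3.85 to 1.32, 1.22 and 1.37 CPM (-1.26 ± 0.16, adjusted p = 0.000256). Irf1, the gene of the list that was higher in ES cells than in MEF, fell from 111, 112 and 112 to 45.4, 48.7 and 46.8 CPM (-1.16 ± 0.04, adjusted p = 1.9e-07). For all 4 genes every siUbc9 library lay below every siCtrl library.

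Stat2 fell in ES cells from 13.49, 16.5 and 15.0 to 10.8, 11.7 and 11.3 CPM (-0.32 ± 0.09, adjusted p = 0.0195). Stat2 was not called when siCtrl replicate 3, siUbc9 replicate 2 or siUbc9 replicate 3 was left out (adjusted p up to 0.0679). Irf9 fell from 9.40, 9.90 and 9.07 to 6.31, 7.29 and 7.77 CPM (-0.31 ± 0.09, adjusted p = 0.019), and lost its call without siUbc9 replicate 2 (adjusted p = 0.073). Irf7, at 1.10, 1.78 and 1.31 CPM with siCtrl and 1.32, 1.53 and 1.84 CPM with siUbc9, was not called. Ifit1 fell from 1.52, 1.74 and 1.33 to 0.274, 0.356 and 0.283 CPM (-2.20 ± 0.21, adjusted p = 5.27e-05), at levels close to the filter.

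The genes of the oligoadenylate synthetase family, some of which make the activator of RNase L, stood low in ES cells. In siCtrl libraries they ranged from 0.593 CPM for Oasl1 to 9.20 CPM for Oas1a. Oas1a fell from 9.20, 8.41 and 8.83 to 5.70, 5.46 and 5.73 CPM (log2 fold change -0.57), Oas2 from 5.10, 4.75 and 4.55 to 3.07, 3.22 and 3.69 CPM (-0.43) and Oasl2 from 1.74, 3.11 and 2.20 to 1.37, 1.31 and 1.17 CPM (-0.81). None of the groups overlapped. Of the 5 genes of this family only Oas1a held in each of the 6 fits with a library left out, while Oas2 and Oas3 held in 5, Oasl2 in 4 and Oasl1 in 2 (adjusted p up to 0.177). Trim25, with 181, 198 and 190.5 CPM in siCtrl and 127, 135 and 139 CPM in siUbc9 (-0.42 ± 0.06, adjusted p = 0.000393), fell at a level like that in fibroblasts, and was lower at D4, D7 and in ES cells. Psmb8 and Psmb9, catalytic subunits of the immunoproteasome, parted: Psmb8 fell from 1.30, 1.58 and 1.23 to 0.603, 0.542 and 0.605 CPM (-1.16), whereas Psmb9, with 2.24, 1.82 and 2.08 against 1.59, 2.15 and 2.04 CPM, was not called.

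The 4 rises in ES cells were Samd9l, Tap1, Trim30a and Mndal. Samd9l, a growth-restraining antiviral factor, rose from 2.40, 2.497 and 2.66 to 12.0, 12.6 and 12.3 CPM (log2 fold change 2.37 ± 0.08, adjusted p = 1.12e-07). Tap1, a subunit of the transporter that feeds peptides to MHC class I, rose from 11.0, 11.5 and 11.2 to 18.9, 21.9 and 19.5 CPM (0.93 ± 0.07, adjusted p = 9.25e-06). Trim30a, a negative regulator of innate signalling, rose from 0.403, 0.553 and 0.536 to 0.878, 0.881 and 0.949 CPM (0.95 ± 0.20, adjusted p = 0.00477). Mndal, a nuclear PYHIN protein, had 0, 0 and 1 counts with siCtrl and 13, 40 and 45 counts with siUbc9, a ratio of 119 with a 95% counting interval of 20.8 to 4744. All 4 rises held in every fit with a library left out, and the number of falls ran from 15, without siUbc9 replicate 2, to 22. The 15 falls that held in every such fit were Irf1, Zbp1, Ifit1, Ifit2, Rsad2, Oas1a, Trim25, Parp9, Parp14, Dtx3l, Psmb8, Ifi35, Gbp2, Gbp3 and Xaf1. Macrophage markers summed to 87.6 to 89.3 CPM with siCtrl and 96.9 to 97.7 CPM with siUbc9. Only 1 of the 15, Adgre1, was at 0 in every siCtrl library. Of the 7 macrophage markers tested 3 rose and 2 fell, where 21.3% of all genes were higher and 17.8% lower. Of the 10 pluripotency markers 5 fell.

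**Figure D5:**
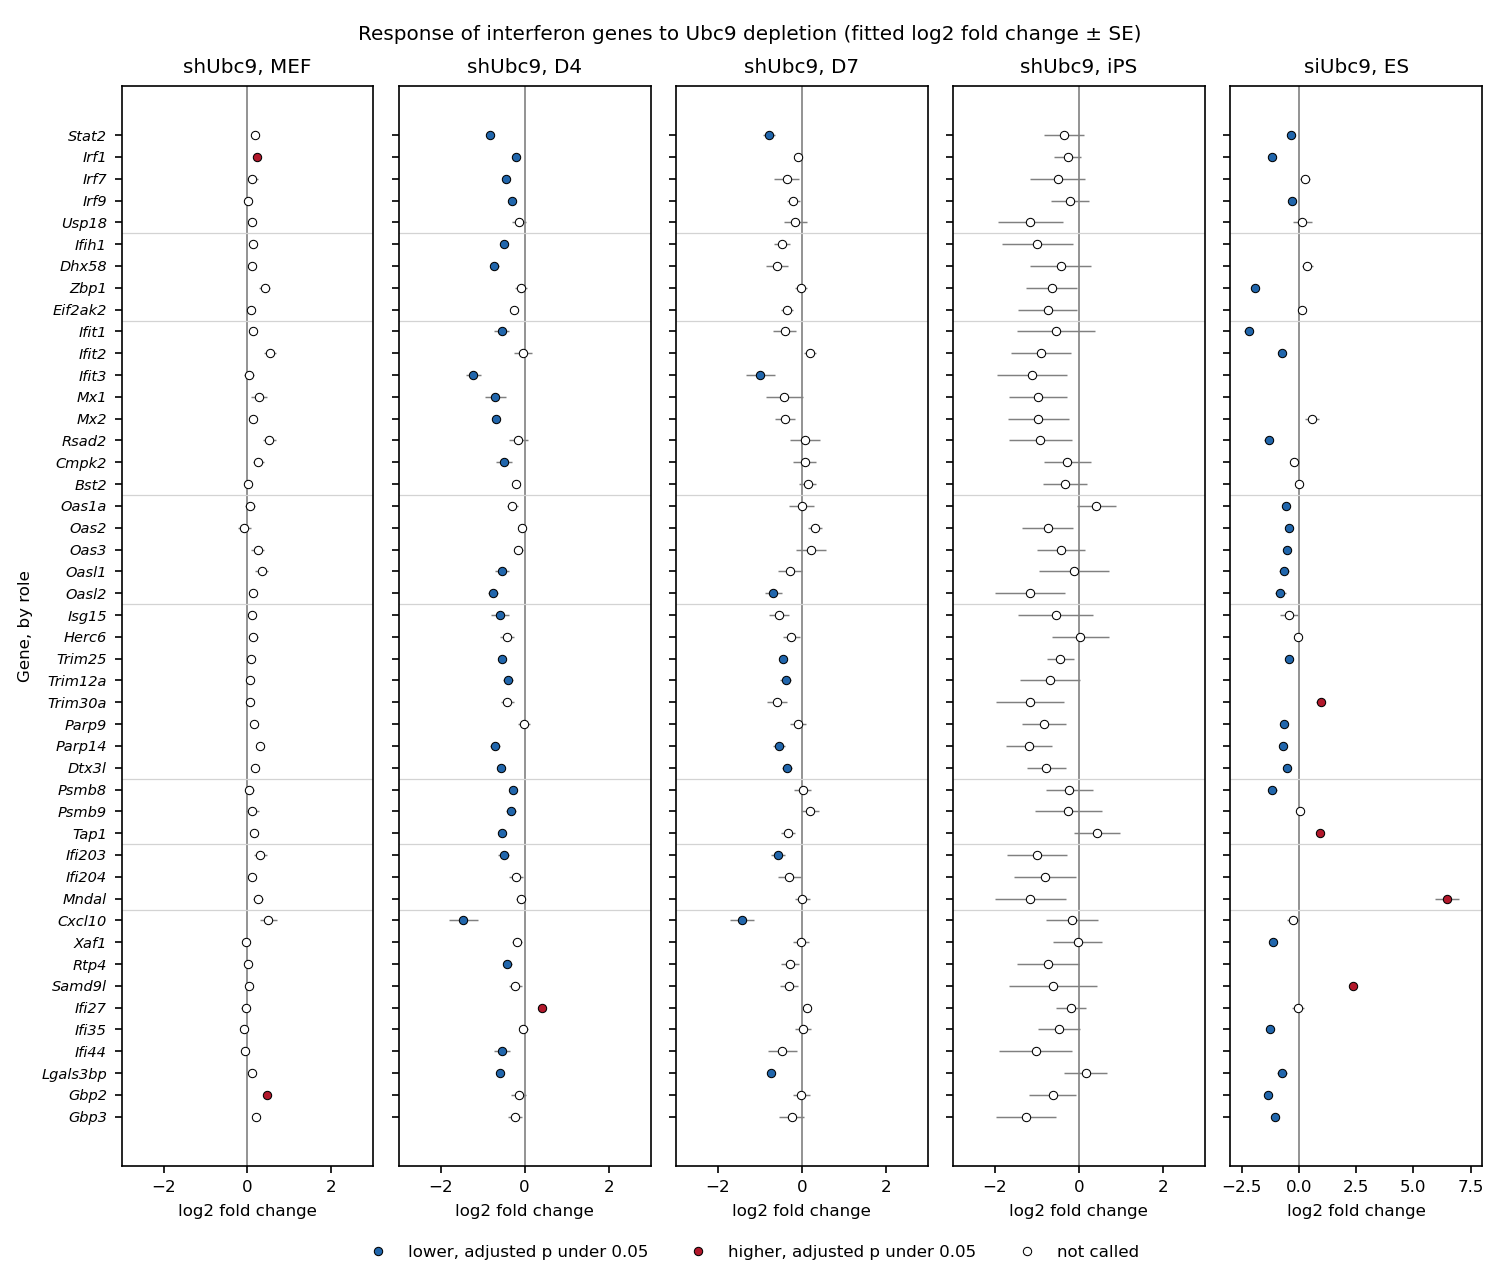
Fitted log2 fold change with its standard error for each interferon gene under Ubc9 depletion in the 5 states, filled blue for lower and red for higher at an adjusted p under 0.05. The ES panel has a wider axis; D4 and ES hold most blue points (26 and 22), and iPS holds no filled point.

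Counting over the 5 depletion comparisons, 41 of the 46 genes were called at least once and 5 never (Usp18, Bst2, Herc6, Eif2ak2 and Ifi204). The share of all genes called at least once was not counted, and at D4 alone 27.2% were higher and 26.1% lower. The count of 41 therefore cannot be read as particular to the list. Of the 26 genes lower at D4, 11 were also lower in ES cells, and Tap1 was lower at D4 and higher in ES cells. Ifit3, Ifi44, Mx1, Ifih1, Trim12a, Rtp4 and Ifi203, also among the 26, were not tested in ES cells. Of all genes 17.8% were lower in ES cells, and the share lower in both states was not counted. The overlap of 11 genes therefore cannot be read as particular to the list. Tap1 had 208, 214 and 193 CPM in D4 controls and 139.7, 133 and 152 CPM with shUbc9 (log2 fold change -0.53 ± 0.07, adjusted p = 0.000209).

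The response to depletion was then compared between states in a model with both states. It differed between D4 and MEF for 23 genes, 22 of them with a more negative change at D4 and 1, Ifi27, with a more positive one, where 19.6% and 17% of all genes differed in these directions. The difference was -1.01 ± 0.11 for Stat2 (adjusted p = 2.67e-05), whose change was 0.18 ± 0.08 in MEF and -0.82 ± 0.07 at D4. It was -0.77 ± 0.13 for Dtx3l (adjusted p = 0.000473), a partner of Parp9 in ubiquitination, with 266, 225 and 264 CPM in MEF shCtrl, 286 and 291 in MEF shUbc9, 209, 184 and 166 in D4 shCtrl and 122, 123 and 132 in D4 shUbc9. For Tap1 it was -0.71 ± 0.12 (adjusted p = 0.00056), with 358, 305 and 313 CPM in MEF shCtrl and 335 and 395 in MEF shUbc9. Ifi27 had a difference of 0.44 ± 0.15 (adjusted p = 0.035), with 60.2, 77.9 and 71.5 CPM in MEF shCtrl and 74.4 and 62.1 in MEF shUbc9, and its adjusted p ran from 0.0108 to 0.305 over the other fits tried. The count of 22 was 37 without D4 shUbc9 replicate 3 and 13 without MEF shUbc9 replicate 3. The degree of depletion and the cell state cannot be told apart in this difference.

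Between D7 and D4 the response differed for none of the 46 genes (edgeR quasi-likelihood test), where 6.04% of all genes had a more positive and 6.24% a more negative change at D7. An unadjusted p under 0.05 was found for 0 genes upwards and 1 downwards, and DESeq2 called 0. Without D7 shCtrl replicate 2 the count was 8, all more positive at D7. Between iPS and ES cells 1 gene differed, Mndal, with a fitted difference of -7.54 ± 1.28 (adjusted p = 0.0209), where 1.04% of all genes were more negative and 0.323% more positive in iPS cells. That value rests on a control group with 1 count in all, is no bound, and kept its call in 4 of the 11 fits with a library left out (adjusted p from 0.00591 to 0.0869). Mndal had 2.05 and 0.613 CPM in iPS shCtrl and 1.17, 0.185 and 0.375 CPM in the libraries labelled shUbc9. Hairpin or small interfering RNA and the cell state cannot be told apart in the difference between iPS and ES cells.

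Upstream of the list, the receptor and signalling genes were examined as a group of 16. None was called in MEF; 7 fell and 2 rose at D4, 10 fell and 1 rose at D7, and 3 of 15 tested fell and 4 rose in ES cells. The shares of all genes lower and higher were 26.1% and 27.2% at D4, 26.3% and 27.3% at D7 and 17.8% and 21.3% in ES cells, so the ES counts were close to them. The receptor gene Ifnar1 fell by 0.32 and 0.68 on the log2 scale at D4 and D7, and Ifnar2 by 0.20 and 0.69. Tyk2, a receptor kinase gene, and Socs1, an inhibitor of the kinases, were the D4 falls with the smallest p (-0.52 ± 0.06 and -1.13 ± 0.13), and the phosphatase gene Ptpn6 rose at D4 (0.43 ± 0.14) and D7 (0.89 ± 0.16).

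The interferons themselves were at or near 0. Ifnb1, for interferon beta, had 1.27, 1.02 and 1.22 CPM in MEF shCtrl and 1.11 and 1.94 CPM in MEF shUbc9, and its change was not called (0.38 ± 0.25, adjusted p = 0.426). It was under the filter in the other 4 comparisons and at 0 in every ES library. Of 11 ligand genes, at most 3 passed the filter in any depletion comparison, and none was called.

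A further 46 interferon-induced genes outside the list gave 2 higher and 0 lower in MEF, 23 lower and 2 higher at D4 and 19 lower and 3 higher at D7, and 26 of 39 tested were lower and 5 higher in ES cells. Over all genes 3.83% were higher in MEF, a share near that of these 46, and 26.1%, 26.3% and 17.8% were lower at D4, at D7 and in ES cells. Their medians were 0.15 in MEF, -0.40 at D4, -0.29 at D7 and -0.57 in ES cells, beside 0.12, -0.40, -0.29 and -0.43 for the list. Uba7, the enzyme that activates ISG15, and the helicase Znfx1 were the D4 falls with the smallest p (-0.97 ± 0.08 and -0.80 ± 0.07), Helz2 and Ifitm1 those at D7 (-0.91 ± 0.06 and -1.09 ± 0.11), and Psmb10 and Irgm1 those in ES cells (-0.88 ± 0.05 and -1.09 ± 0.07). Against this direction, Oas1c and Cxcl9 rose at D4 (0.68 ± 0.11 and 0.36 ± 0.10), Tgtp1 and Gbp4 at D7 (1.63 ± 0.27 and 0.63 ± 0.16), and Slfn2 and Nlrc5 in ES cells (3.18 ± 0.18 and 0.92 ± 0.12).

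Among 21 tested sensors, adaptors and kinases outside the list, 2 were higher in MEF, 6 lower and 4 higher at D4, 8 lower and 1 higher at D7, and 8 lower and 2 higher in ES cells. At D4 the share of falls was near the 26.1% of all genes and that of rises under the 27.2%, while 26.3% and 17.8% of all genes were lower at D7 and in ES cells. Rigi, the RNA sensor RIG-I, and Adar, an RNA-editing enzyme, fell at D4 (-0.76 ± 0.09 and -0.59 ± 0.06), and the DNA sensor Aim2 rose at D4 (0.95 ± 0.09) and D7 (1.62 ± 0.11). Of 19 tested NF-kB targets, which share inducers with the interferon genes, 9 rose and none fell in MEF (Ccl2 0.86 ± 0.06, Ccl7 0.61 ± 0.06). At D4 6 rose and 8 fell, at D7 none rose and 11 fell (Csf1 -1.41 ± 0.09, Vcam1 -1.33 ± 0.09), and of 15 tested in ES cells 5 rose and 4 fell. Over all genes 3.83% rose in MEF, 27.2% rose and 26.1% fell at D4, 26.3% fell at D7, and 21.3% rose and 17.8% fell in ES cells.

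Genes with a match were also counted by response, with no test. ISRE letters stood in the promoter windows of 8 of 21 genes lower at D4 (38.1%) and in 9 of 14 of the other members (64.3%), while those lower at both D4 and D7 had them in 5 of 9 (55.6%). For ES cells the counts were 7 of 18 genes that fell (38.9%) and 10 of 17 other members (58.8%). Those others include genes not tested in ES cells: Ifi203, Ifih1, Ifit3 and Trim12a, which hold a match, and Ifi44, which does not. GAS letters stood in those of 2 of the 21 genes lower at D4 (9.52%) and 5 of 14 others (35.7%). In ES cells the order was reversed, with 5 of 18 genes that fell (27.8%) and 2 of 17 others (11.8%).

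Over the 28 libraries, the genes outside the list with log2 CPM most like that of Stat2, among 13998 ranked, were Phyhd1 (Pearson r = 0.990), Igtp (0.986), Klhl25 (0.986), Pomk (0.985) and Trafd1 (0.985). Within the list Ifit3 came closest (0.983), and Irf1 (0.384) and Trim25 (0.437) were least alike. These values describe a course shared across states, since libraries of a state resemble each other, and carry no test.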

How the data were processed

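Total RNA was sequenced from 28 libraries in 10 groups, and the values used are read counts per gene, which the authors deposited as a table of 26301 genes and 799 repeat families. Per the submitters' processing notes, STAR 2.5.0a, featureCounts, DESeq2 and MACS2 were used and the build was mm9. The annotation, the strand setting and the handling of reads with several positions are not stated there or in the labels used here. Repeat families were left out of library sizes and tests. Gene identifiers were matched to symbols by a RefSeq table (24191 matched, 2110 did not), with Rigi found under Ddx58. Deposited peak lists were not used here. Counts per library ranged from 11365908 to 58779915, which sets the precision of genes near 1 CPM.

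Each comparison was fitted on its own groups with edgeR 4.0.16 (quasi-likelihood test, filterByExpr with a minimum count of 10, TMM scaling, R 4.3.3, two-sided), with p adjusted by the Benjamini-Hochberg method over all genes tested and calls at 0.05. Standard errors are the absolute log2 fold change divided by the square root of F. CPM values use one TMM scaling over all 28 libraries, and log2 CPM a prior count of 2. The steps were tested on simulated data. Alternatives were DESeq2 1.42.0, other scalings, no filter on low counts, all groups fitted together, the replicate number as a block, and each library left out. The tests have no block, since outside ES cells same-numbered libraries did not deviate together. In ES cells their deviations were weakly alike, and a pairing there is not settled.

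The genes and lists were chosen with earlier results of these data known. Named in full are Stat2, Irf1, Irf7 and Irf9 where called, the 4 called genes with the largest fall and rise of at least 1 CPM per depletion comparison, the 3 with the smallest p per response difference, and those called against the majority. In other lists, named genes are Ifnar1, Ifnar2, Ifnb1 and those with the smallest p. Further genes of the list were chosen after their values were seen. Of the marker lists, lymphocyte markers summed to 0.553 to 5.55 CPM, plasmacytoid dendritic cell markers outside the list to 14.3 to 245 CPM and endothelial markers to 13.2 to 206 CPM over all libraries. Some genes, the target of the depletion among them, are not reported here.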

Additional observations from a re-analysis of the deposited data

Results flagged for a closer look

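The response to Ubc9 depletion differed between D4 and MEF for 23 of the 46 interferon genes, by the interaction contrast of a model with both states. The 3 with the smallest p were Stat2, with a difference of -1.01 on the log2 scale, Dtx3l with -0.77 and Tap1 with -0.71. Between iPS and ES cells, by the same kind of contrast, the response differed for 1 gene, Mndal, with a fitted difference of -7.54 that rests on 1 count in the ES controls.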

How the results depend on the processing

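No result reversed its direction under any alternative where it was called. Of the single-gene values recomputed under the alternatives, 6361 kept their side of the threshold, 173 passed it only under the alternative and 408 no longer passed it. Genes called in neither fit count among the 6361 even where their sign changed. With all 10 groups in one fit, the higher genes in MEF were 0 (not 2), and the lower genes were 4 at D4 (not 26), 4 at D7 (not 10), 1 in iPS (not 0), 9 in ES (not 22), 11 in D4 against MEF (not 36, with 1 higher, not 3), 5 in D7 against D4 (not 23) and 1 in iPS against ES (not 2). In that fit the response differed between D4 and MEF for 0 genes upwards and 2 downwards (not 1 and 22), and between iPS and ES for 1 upwards and 3 downwards (not 0 and 1). With library sizes alone, 7 genes were higher in MEF, 2 higher and 4 lower at D7, and 1 lower in iPS against ES. Without the filter on low counts 5 were higher in MEF. DESeq2 gave 1 upward and 2 downward differences between iPS and ES. With the replicate block, 5 genes were higher in MEF, the response differed between D4 and MEF for 0 upwards and 12 downwards, and between iPS and ES for 1 upwards. Same-numbered libraries deviated with correlations from -0.46 to 0.02 outside ES cells. In ES cells all were positive, from 0.06 to 0.22, so whether the numbers pair libraries there is not settled. With the block, 25 interferon genes were called in ES cells (not 26). The cause of the differences between fits was not tested.

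Leaving out a library gave ranges of 0 to 5 higher in MEF, 15 to 35 lower at D4, 0 to 6 higher and 5 to 15 lower at D7, 4 higher and 15 to 22 lower in ES, 3 to 4 higher and 32 to 38 lower in D4 against MEF, 1 higher and 2 to 43 lower in D7 against D4, 34 to 43 higher and 1 to 3 lower in iPS against ES, and 44 to 45 lower in ES against MEF. For response differences they were 0 to 1 upwards and 13 to 37 downwards between D4 and MEF, 0 to 8 upwards between D7 and D4, and 0 to 1 upwards and 0 to 3 downwards between iPS and ES. A group left with 1 library is assumed to vary like the other group. With library sizes alone the share of all calls that were higher moved from 63.4% to 52.1% in MEF, 50.9% to 71.5% at D7, 49.8% to 62.2% in D4 against MEF, 58.0% to 39.4% in D7 against D4, 46.4% to 62.2% for the D4 and MEF responses and 49.2% to 72.9% for the D7 and D4 responses. Genes under about 1 CPM in ES cells, 18 of the 46, are limited by depth.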
